A study of Mus musculus with 10 samples.

Results

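The nuclear genes of the respiratory chain encode most subunits of the 5 complexes of the inner mitochondrial membrane and several of their assembly factors. They were chosen by name from the protein-coding genes of the GENCODE mouse annotation (build mm10), as symbols that start with Nduf, Uqcr, Atp5 or Cox plus a digit, or that read Sdha, Sdhb, Sdhc or Sdhd. The choice gave 103 gene entries of 21938, with 102 symbols because Atp5o was annotated as 2 entries. Accessible sites within 1 kb of any annotated start of these genes numbered 100 of the 153924 sites listed for the study. A start means the first base of an annotated transcript, and the representative start is that of the principal coding transcript.

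The sites came from ATAC-seq, in which the Tn5 transposase inserts sequencing adapters into open chromatin. The cells were immortalized mouse embryo fibroblasts (iMEF) of 1 clone, NG3, in which exon 4 of both endogenous Ash2l alleles had been deleted and which lived on FKBP-HA2-ASH2L, a fusion of FKBP12F36V, HA tags and human ASH2L. All 10 libraries carried this background. The 5 groups of 2 libraries each were control cells without dTAG, which received the solvent EtOH, and cells exposed to the degrader dTAG-13 for 30 min, 4 h, 8 h or 24 h. ASH2L is a core subunit of the KMT2 complexes that methylate lysine 4 of histone H3, and dTAG-13 brings the fusion protein to an E3 ubiquitin ligase. The list gives the chromosome and both edges of each site over all libraries together, with no read count and no value per library. Depth was therefore unknown, treated and control cells could not be compared, and no replicate error belongs to the values. The intervals given are 95% intervals over genes, which are not replicates, and no test was run over the respiratory chain genes.

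Complex I oxidizes NADH and complex II oxidizes succinate, complex III passes the electrons to cytochrome c, complex IV reduces oxygen, and complex V, the ATP synthase, uses the proton gradient that complexes I, III and IV build. A few subunits, mainly of complex IV, exist as paralogs, with 1 gene used in nearly every tissue and another restricted to muscle, testis, lung or hypoxic cells. Textbook regulators of the nuclear genes are NRF1 (nuclear respiratory factor 1), the ETS factor GABP (also called NRF-2), YY1 and the estrogen-related receptors (ERR), together with coactivators of the PGC-1 family.

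The start regions of 6 pairs of paralogs are shown to set the CpG content of ubiquitous and tissue-specific genes side by side. Each run holds 100 bases before and 30 bases from the representative start, read 5′ to 3′ on the strand of the gene from the RefSeq genome of build GRCm38 (mm10), with every CpG in capitals. For the cytochrome c oxidase subunit 6a, the positions were chr5:115348952-115349081 (minus strand) for the ubiquitous gene Cox6a1 and chr7:128206358-128206487 (minus strand) for the heart and skeletal muscle gene Cox6a2. For subunit 8 they were chr19:7217587-7217716 (minus strand) for Cox8a and chr7:140900417-140900546 (minus strand) for Cox8b, a gene of heart, muscle and brown fat. For subunit 7a they were chr9:79759849-79759978 (minus strand) for Cox7a2 and chr7:30184044-30184173 (plus strand) for the muscle gene Cox7a1. For subunit 6b they were chr7:30626122-30626251 (minus strand) for Cox6b1 and chr7:4753065-4753194 (minus strand) for the testis gene Cox6b2. For the Ndufa4 family they were chr6:11907468-11907597 (minus strand) for Ndufa4 and chr10:127514867-127514996 (plus strand) for the hypoxia gene Ndufa4l2. For subunit 7b they were chrX:106015600-106015729 (plus strand) for Cox7b and chr5:71548176-71548305 (minus strand) for the testis gene Cox7b2.
Cox6a1: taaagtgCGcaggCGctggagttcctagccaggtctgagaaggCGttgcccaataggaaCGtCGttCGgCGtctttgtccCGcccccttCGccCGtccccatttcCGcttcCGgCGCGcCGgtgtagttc
Cox6a2: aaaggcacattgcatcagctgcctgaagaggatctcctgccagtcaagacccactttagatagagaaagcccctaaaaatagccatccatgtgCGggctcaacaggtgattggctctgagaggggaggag
Cox8a: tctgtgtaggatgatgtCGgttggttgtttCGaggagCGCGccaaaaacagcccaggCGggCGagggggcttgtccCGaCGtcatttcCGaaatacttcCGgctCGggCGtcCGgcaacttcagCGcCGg
Cox8b: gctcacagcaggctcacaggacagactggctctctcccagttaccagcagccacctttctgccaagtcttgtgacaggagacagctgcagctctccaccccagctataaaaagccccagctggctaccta
Cox7a2: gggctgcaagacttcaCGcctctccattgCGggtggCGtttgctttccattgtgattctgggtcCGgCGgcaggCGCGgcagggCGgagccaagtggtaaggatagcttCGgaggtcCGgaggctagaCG
Cox7a1: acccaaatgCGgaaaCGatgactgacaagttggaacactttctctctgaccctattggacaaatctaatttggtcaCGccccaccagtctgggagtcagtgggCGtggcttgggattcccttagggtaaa
Cox6b1: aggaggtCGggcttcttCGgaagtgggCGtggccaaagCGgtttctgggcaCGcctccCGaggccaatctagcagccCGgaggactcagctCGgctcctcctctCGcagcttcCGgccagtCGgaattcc
Cox6b2: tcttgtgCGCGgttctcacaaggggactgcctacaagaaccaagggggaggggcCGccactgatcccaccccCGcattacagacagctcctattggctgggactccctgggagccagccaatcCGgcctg
Ndufa4: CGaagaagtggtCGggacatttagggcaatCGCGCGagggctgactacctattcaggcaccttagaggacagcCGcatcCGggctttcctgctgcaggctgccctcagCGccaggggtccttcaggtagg
Ndufa4l2: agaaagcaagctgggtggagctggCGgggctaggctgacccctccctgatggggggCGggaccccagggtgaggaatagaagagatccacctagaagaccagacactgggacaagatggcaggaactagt
Cox7b: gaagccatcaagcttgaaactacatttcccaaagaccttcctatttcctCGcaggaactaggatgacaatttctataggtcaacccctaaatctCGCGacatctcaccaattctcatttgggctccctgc
Cox7b2: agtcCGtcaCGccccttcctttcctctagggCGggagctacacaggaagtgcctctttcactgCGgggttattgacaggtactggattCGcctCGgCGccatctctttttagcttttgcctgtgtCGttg
Cox6a1 and Cox8a held 15 CpG each in these windows, Cox6a2 held 1 and Cox8b held 0. The differences were smaller for Cox7a2 against Cox7a1, with 11 and 4 CpG, for Cox6b1 against Cox6b2, with 11 and 5, and for Ndufa4 against Ndufa4l2, with 8 and 2. The order was the other way for Cox7b, with 3 CpG, against Cox7b2, with 8. Of the families not shown, Cox4i1 held 20 CpG and Cox4i2 11, and Cox8c, a further paralog of Cox8a, held 7.

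Nearly every respiratory chain gene had an accessible site at its start. A site lay within 1 kb of a start of 93 of the 103 entries (90.3%, Wilson interval 83.0 to 94.6), beside 70.8% of all protein-coding genes. The representative start itself lay inside a site in 89 entries (86.4%), beside 59.8% of all protein-coding genes. The labelled cell type was checked against marker genes, and all 8 fibroblast markers had a site at a start, among them Col1a1, a collagen chain, and Vim, the intermediate filament vimentin. Sites were also listed at 4 of 8 heart and skeletal muscle markers, with none at Myod1, Myog, Myh6 and Tnnt2. The widest site over all annotated starts measured 1330 bp at Actn2, 867 bp at Ckm, 549 bp at Nkx2-5 and 414 bp at Myh7. At Actn2, Ckm and Nkx2-5 a narrower site covered the representative start, and at Myh7 the site lay 740 bp from it. Of the testis germ cell markers, 0 of 8 had a site. For scale, 70.8% of all protein-coding genes had a site, and 50.8% of those with CpG-poor promoters, as defined below. CpG-rich promoters numbered 1 among the fibroblast markers, 0 among the muscle markers and 2 among the testis markers. The count of 4 of 8 muscle markers was thus near the CpG-poor share.

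**Figure D1:**
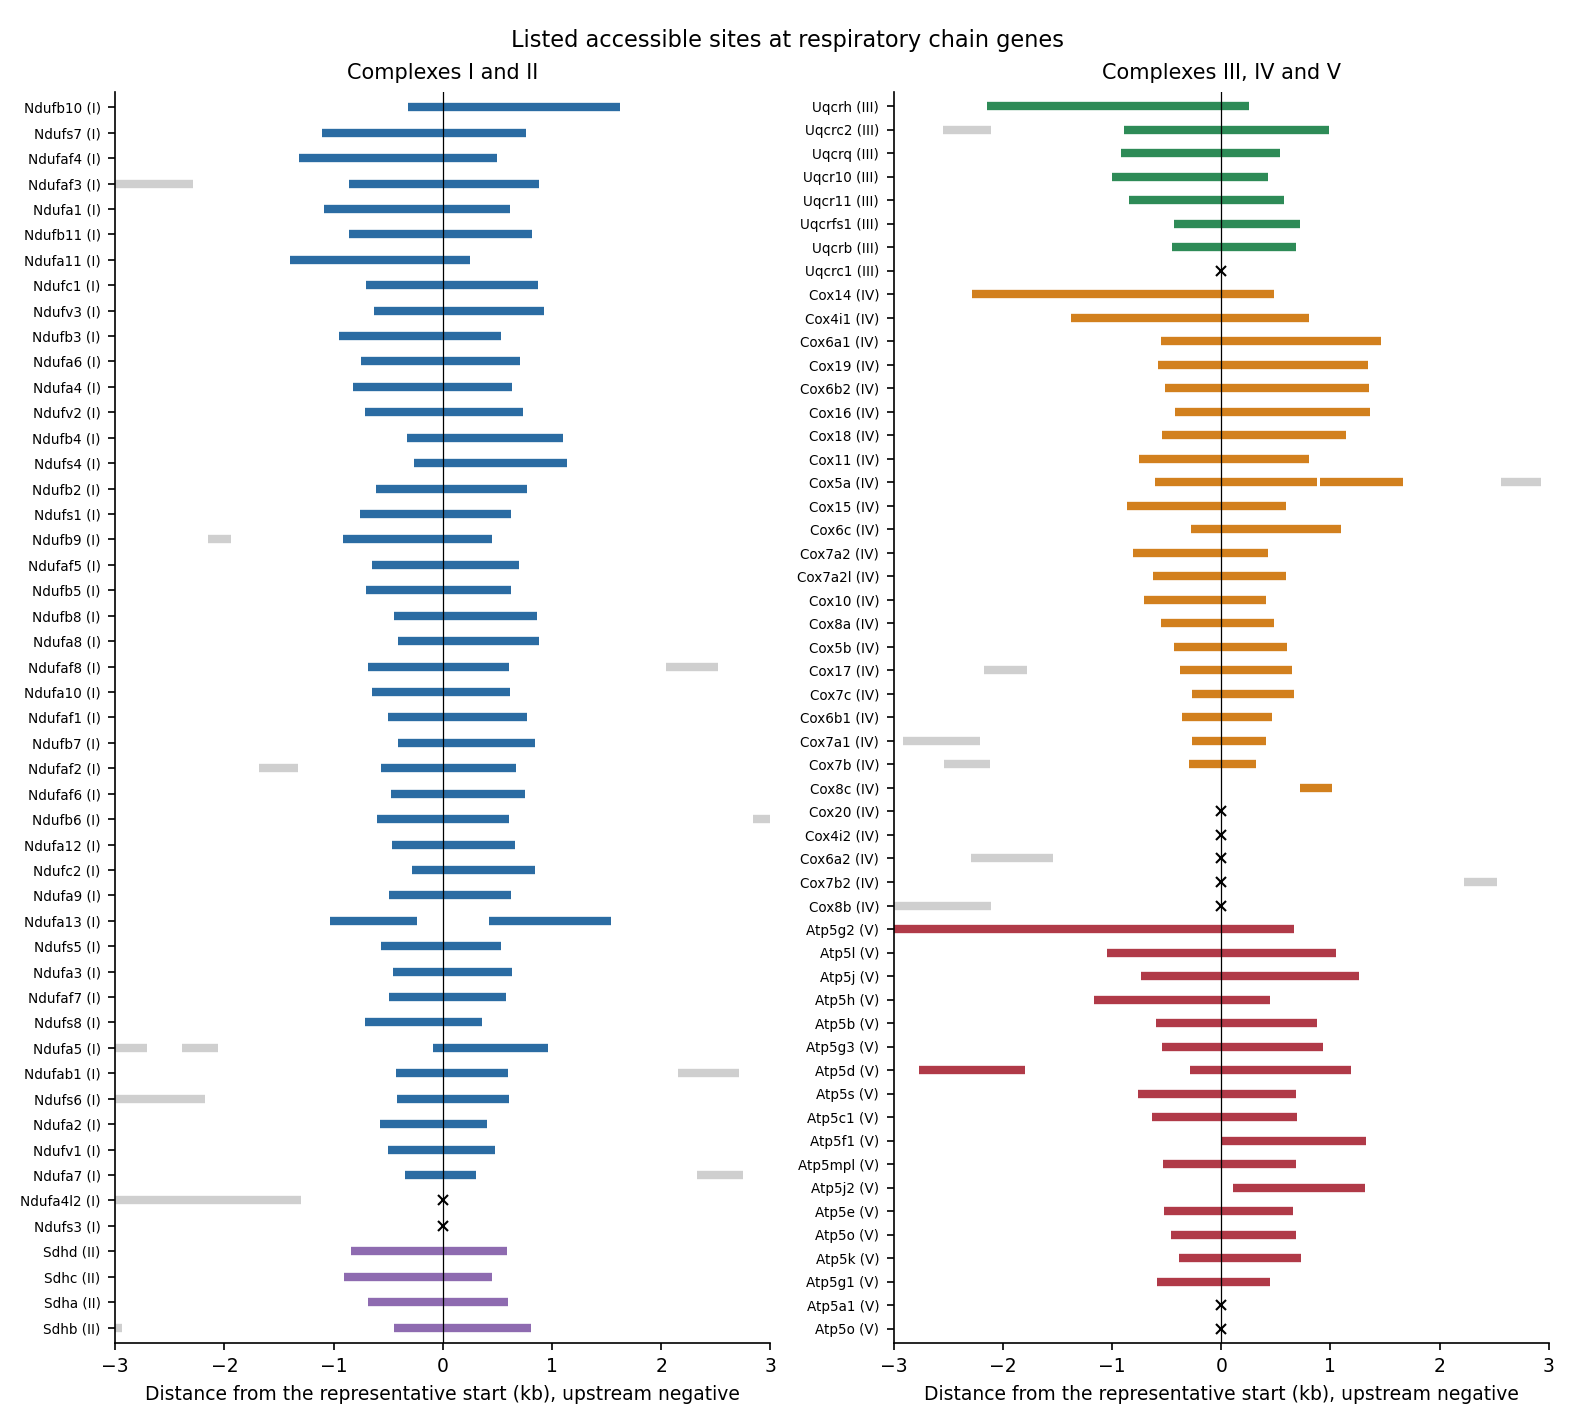
Position of the listed sites around the representative start of 102 of the 103 gene entries, in kb with upstream negative, for complexes I and II (left) and III, IV and V (right). Coloured bars are sites within 1 kb of any annotated start, pale bars are other sites, bars are cut at 3 kb, and a cross marks the 10 entries without a site in the window. Most bars span the start on both sides.

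Genes were assigned to complexes by their symbols, so that Ndufa4 and Ndufa4l2 were counted with complex I, although the Ndufa4 protein is now placed in complex IV. Complex I was represented by 46 genes, of which 44 had a site. Among the 7 core subunits encoded by these nuclear genes, which form the electron-carrying peripheral arm, 6 had a site. The widest site measured 977 bp at Ndufv1, which holds the NADH site, and 1452 bp at its partner Ndufv2. It measured 1382 bp at Ndufs1, the large iron-sulfur subunit. It measured 1869 bp at Ndufs7 and 1069 bp at Ndufs8, both iron-sulfur subunits that lead electrons to the quinone. Ndufs3 was the core gene without a site. The widest core site was therefore that of Ndufs7 and the narrowest that of Ndufv1.

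Around this core, 30 of 31 supernumerary subunits of complex I had a site, with a median width of 1304 bp. The exception was Ndufa4l2, and without the Ndufa4 family all 29 had one. All 8 Ndufaf assembly factors had one, with a median width of 1281 bp. Complex II had a site at each of its 4 genes, and their widths were close to each other. The site measured 1284 bp at Sdha, the flavoprotein, and 1258 bp at Sdhb, the iron-sulfur protein. It measured 1361 bp at Sdhc and 1435 bp at Sdhd, the membrane anchors.

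Complex III had a site at 7 of 8 genes, with a median width of 1435 bp. The gene without one was Uqcrc1, which encodes the larger core protein, whereas its partner Uqcrc2 had a site of 1877 bp. Complex IV had a site at 22 of 27 genes, the lowest share of the 5 complexes at 81.5% (63.3 to 91.8), and with the Ndufa4 family at 23 of 29 (79.3%, 61.6 to 90.2). Its subunits accounted for 14 of 18, and 4 of the 5 missing genes of the complex were tissue-specific paralogs. Of its assembly and copper factors, Cox10 to Cox20, 8 of 9 had a site, and Cox20, which helps to insert subunit 2, had none.

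Complex V had a site at 16 of 18 entries. The entries without one were Atp5a1, which encodes the alpha subunit of the catalytic head, and the second entry of Atp5o. That entry is a long gene model at chr16:91684398-91926982, and its start lay 4022 bp from the site of 1147 bp that covered the start of the first Atp5o entry. The beta subunit gene Atp5b had a site of 1481 bp. The 3 genes Atp5g1, Atp5g2 and Atp5g3 encode the same mature subunit c of the membrane ring behind different import signals. Their widest sites measured 1040 bp at Atp5g1, 3753 bp at Atp5g2 and 1476 bp at Atp5g3. The site at Atp5g2 (chr15:102670464-102674216) was the widest of all respiratory chain genes and reached 3089 bp upstream of the representative start.

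Where a site was present, it was usually a single site of middling width. The widest site per gene had a median of 1321 bp (1237 to 1435) over the 93 genes with a site, and the quartiles were 1123 and 1488 bp. Over all protein-coding genes with a site the median was 1412 bp (1403 to 1420), with quartiles of 1107 and 1753 bp. Sites of at least 1000 bp made up 91.4% of those at respiratory chain genes and 81.1% at all protein-coding genes. The lower quartiles nearly coincided, and the upper quartile of the respiratory chain genes lay lower. Among genes with CpG-rich promoters, as defined below, the medians were 1361 bp (1271 to 1455), beside 1516 bp (1505 to 1524) in all such protein-coding genes. Among CpG-poor genes they were 1238 bp (1093 to 1397), beside 1209 bp (1194 to 1225).

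After Atp5g2, the widest sites were those of Cox14, a factor for the synthesis of subunit 1, with 2765 bp, and Uqcrh, the hinge protein of complex III, with 2403 bp. The narrowest were those of Cox8c with 293 bp, Cox7b with 612 bp and Ndufa7 with 653 bp. Several sites, counted over the windows of all starts of a gene, were found at 5 genes (4.85%), beside 21.7% of all protein-coding genes. Cox5a, Atp5d, Ndufv3 and Ndufa13 were among them, with 2 each. The middle of the other site lay 9334 bp downstream of the representative start at Ndufv3 and 2281 bp upstream at Atp5d, near other annotated starts. At Ndufa13 (GRIM-19), the representative start lay between its pair of sites, 240 bp from the nearer one. The genes with a site in the window that did not cover the representative start were Ndufa13, Cox8c, at 724 bp, Atp5j2, at 112 bp, and Atp5f1, at 9 bp.

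The sites were placed almost evenly about the start. Sites that covered the representative start reached a median of 599 bp upstream and 663 bp downstream in the 89 respiratory chain genes, and 564 bp upstream and 800 bp downstream in 13128 protein-coding genes. Their middles lay at a median of 30 bp and 112 bp downstream of the start, respectively. The upstream arm was the longer one in 37 of the 89 genes (41.6%), beside 31.6% of all protein-coding genes. At 500 bp upstream a site covered 57.28% of the respiratory chain genes and 38.05% of all protein-coding genes, whereas at 1000 bp downstream the shares were 16.50% and 22.47%.

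**Figure D2:**
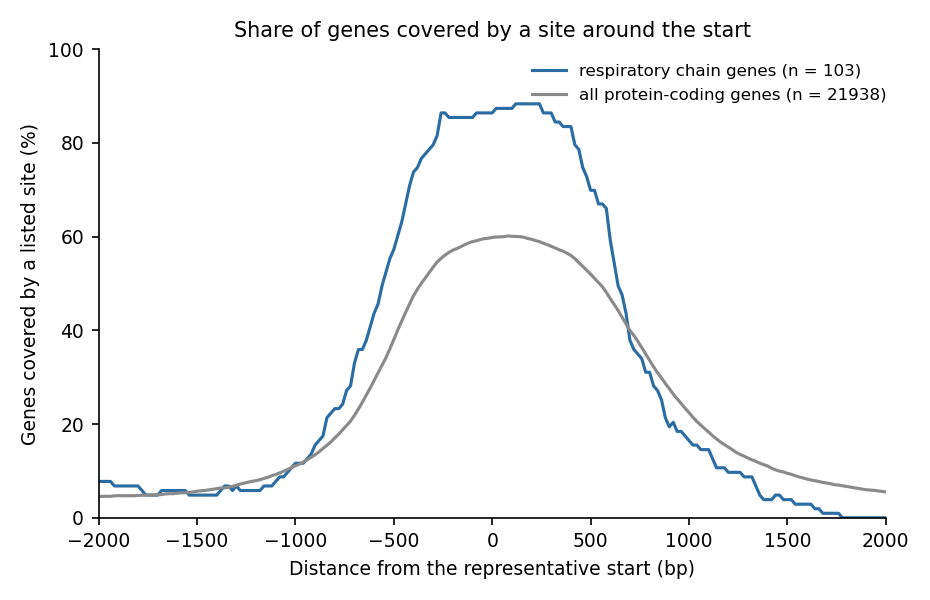
Share of genes (%) whose sequence at a given distance (bp) from the representative start lay in a listed site, for the 103 respiratory chain entries and all 21938 protein-coding genes. The respiratory chain genes reached 86.41% at the start, beside 59.84%, and their line lay under that of all genes from 700 bp downstream on.

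Ubiquitous and tissue-specific paralogs differed in their counts of sites at the start. All 7 ubiquitous paralogs had a site (100%, 64.6 to 100), and 3 of 8 tissue-specific paralogs did (37.5%, 13.7 to 69.4), beside the 70.8% of all protein-coding genes. With so few genes the intervals of both groups overlapped. The members outside these families had a site in 83 of 88 entries (94.3%). The ubiquitous genes were Cox4i1 with a widest site of 2176 bp, Cox6a1 with 2017 bp, Ndufa4 with 1455 bp, Cox7a2 with 1237 bp, Cox8a with 1035 bp, Cox6b1 with 827 bp and Cox7b with 612 bp. Each of these sites covered the representative start.

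Among the tissue-specific paralogs, the testis gene Cox6b2 had a wide site of 1866 bp (chr7:4751742-4753607), which contained the whole annotated gene and all 7 of its starts. Cox7a1, a muscle gene, had a narrow site of 673 bp over its start. Cox8c, a testis gene, had a site of 293 bp that began 724 bp downstream of its start and was the narrowest of the chain. The widths of Cox6b2 and Cox7a1 lay within the range of the ubiquitous genes, 612 to 2176 bp, and that of Cox8c lay under it.

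The 5 tissue-specific genes without a site in the window were not far from one. The distance from the start to the nearest site was 1296 bp for Ndufa4l2, 1542 bp for Cox6a2, 2107 bp for Cox8b, 2221 bp for the testis gene Cox7b2 and 3836 bp for Cox4i2, a gene of lung and hypoxic cells. For Ndufa4l2, Cox6a2 and Cox8b this site lay upstream, and for Cox7b2 and Cox4i2 it lay downstream and inside the gene. None of these 5 sites covered the annotated start of any protein-coding gene. With a window of 500 bp the counts were 7 of 7 ubiquitous and 2 of 8 tissue-specific genes. With a window of 3 kb either side of any start all 15 genes had a site, beside 76.4% of all protein-coding genes. With RefSeq starts Ndufa4l2 also had a site, which gave 4 of 8 tissue-specific genes, beside 69.6% of all protein-coding genes. The cytochrome c genes, which the naming rule did not reach, gave a site of 1458 bp at the somatic gene Cycs and none at the testis gene Cyct, whose nearest site lay 1393 bp away.

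**Figure D3:**
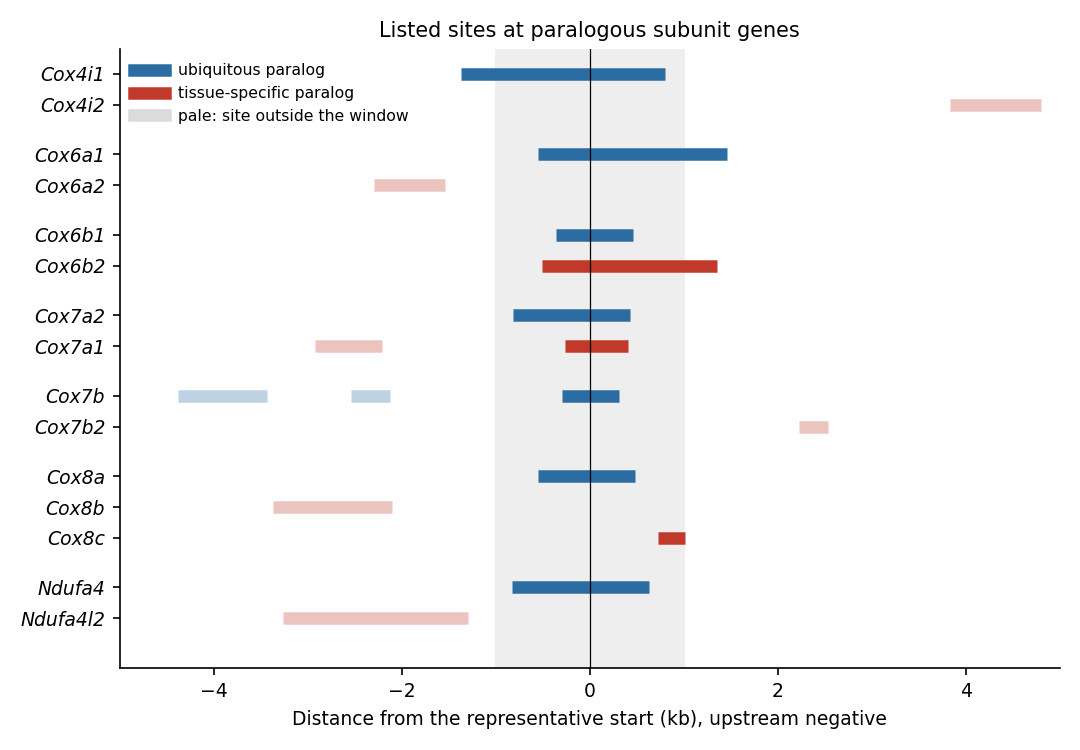
Listed sites within 5 kb of the representative start of the 15 paralogous subunit genes, in kb with upstream negative, with families separated by gaps. Blue bars belong to ubiquitous and red bars to tissue-specific paralogs, pale bars lie outside the 1 kb window (grey band), and the 7 blue genes all have a bar over the start, whereas 2 of the 8 red genes do.

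CpG content ran alongside this split. A promoter was taken as 250 bases before to 50 bases from the representative start and was called CpG-rich when its observed to expected CpG ratio exceeded 0.6 and its GC content exceeded 50%. Of the ubiquitous paralogs 6 of 7 were CpG-rich, the exception being the X-linked Cox7b with a ratio of 0.368, and of the tissue-specific paralogs 0 of 8 were, with an upper bound of 32.4%. The median ratios were 0.833 and 0.368. Cox4i1 had the highest ratio of the 15 genes, 1.20, and Cox8b the lowest, 0.115. The part of CpG content in the presence of sites was not tested.

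Over the whole chain, 67 of 103 promoters were CpG-rich (65.0%, 55.5 to 73.6), beside 43.7% of all protein-coding genes. The median ratio was 0.807, beside 0.556, and the median GC content was 56.3%, beside 56.0%, so that the promoters differed in CpG and hardly in GC. CpG-rich respiratory chain genes had a site in 65 of 67 cases (97.0%), beside 96.6% of CpG-rich protein-coding genes. CpG-poor ones had a site in 28 of 36 cases (77.8%, 61.9 to 88.3), beside 50.8% of CpG-poor protein-coding genes. The shares of the CpG-rich genes were thus close to each other, and those of the CpG-poor genes lay further apart. The 2 CpG-poor groups were not alike in CpG, with a median ratio of 0.534 in the respiratory chain genes, beside 0.252. Some of these genes were called CpG-poor by GC content alone, such as Ndufs7, with a ratio of 1.08 and a GC content of 47.3%. Examples of CpG-poor genes with a site were Sdhb, with a ratio of 0.360 and a site of 1258 bp, Ndufs4, an accessory subunit, with 0.377 and 1397 bp, and Ndufb10, with 0.353 and 1944 bp. For Atp5j2, with a ratio of 0.104, and Atp5f1, with 0.217, the representative start lay outside the site, which left most of the promoter scored at Atp5f1 and all of that at Atp5j2 outside it.

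**Figure D4:**
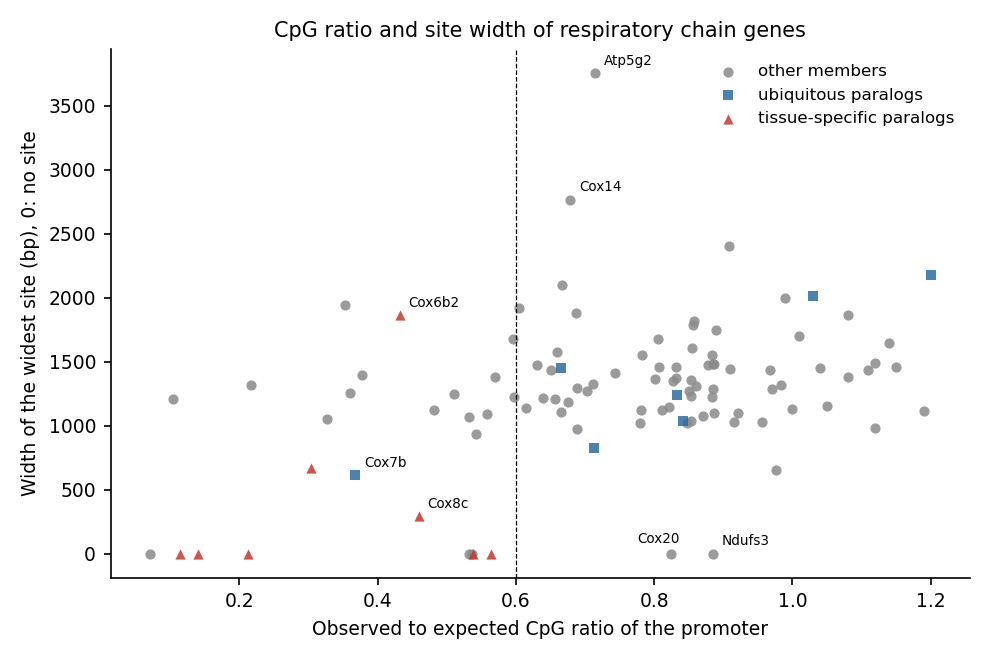
Observed to expected CpG ratio of the promoter against the width (bp) of the widest site within 1 kb, for the 103 respiratory chain entries, with entries without a site at 0. The dashed line marks the ratio of 0.6, the 8 tissue-specific paralogs (red triangles) lie to its left, and Cox20 and Ndufs3 are the entries without a site to its right.

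Cox20 and Ndufs3 were CpG-rich, ubiquitously used genes without any site nearby. Like Uqcrc1 and Atp5a1, whose ratios were 0.536 and 0.532, they lay in long intervals without a listed site. Cox20 lay in an interval of 385 kb without a listed site (chr1:177983974-178368589), 49.5 kb from the nearest one. Ndufs3 lay in an interval of 205 kb (chr2:90848245-91052893), 56.6 kb from the nearest site. Uqcrc1 lay in one of 169 kb (chr9:108784432-108953075), 16.4 kb from a site that covered the start of Col7a1. Atp5a1 lay in one of 501 kb (chr18:77621364-78122273), 152 kb from the nearest site. These 4 genes thus lay in long stretches without sites, and Uqcrc1 was the closest of them to a listed site.

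The intervals also held starts of other genes with CpG-rich promoters. The interval of Cox20 contained those of Desi2 and Hnrnpu, and the interval of Ndufs3 contained those of C1qtnf4, Kbtbd4 and Celf1. The interval of Uqcrc1 contained those of Nckipsd and Celsr3, and that of Atp5a1 contained those of 8030462N17Rik, Haus1, Pstpip2 and Epg5. The median distance between neighbouring sites of the list was 7.15 kb, and 1182 of 153661 intervals were 150 kb or longer. Such long intervals held the representative starts of 4 respiratory chain genes (3.88%), beside 11.0% of all protein-coding genes. Among CpG-rich genes they held 2 of 67 (2.99%), beside 190 of 9576 (1.98%). Why the list has no site in these intervals was not tested.

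The X chromosome carried 3 of the genes, and all had a site, beside 49.8% of the 948 protein-coding genes of that chromosome. The sites measured 1701 bp at Ndufa1, a small subunit of the membrane arm, 1681 bp at Ndufb11 and 612 bp at Cox7b.

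Many of these genes faced another gene across a shared start region. A protein-coding gene on the opposite strand started within 1 kb upstream of 25 of the 103 entries (24.3%, 17.0 to 33.4), beside 7.00% of all protein-coding genes (6.67 to 7.34). A single site covered both starts in 24 of these 25 pairs, beside 92.4% of the divergent pairs of all protein-coding genes. The exception was Ndufa5 with Asb15, whose starts lay 131 bp apart.

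The 5 shortest distances belonged to pairs in which a subunit gene met a gene of another function. Ndufs1 and Eef1b2, a translation elongation factor subunit, started 3 bp apart inside the same site of 1382 bp. Ndufb11 and Rbm10, an RNA-binding protein, also started 3 bp apart, inside a site of 1681 bp. The distance was 10 bp between Ndufa7 and Rps28, a ribosomal protein, inside a site of 653 bp. It was 26 bp between Ndufb9 and Tatdn1 and 29 bp between Sdha and Ccdc127. Of the complex II genes 3 of 4 had such a neighbour, among them Sdhd, which started 98 bp from Timm8b, a chaperone of the mitochondrial intermembrane space. Counting starts on either strand, the widest site covered the start of another protein-coding gene at 33 of the 93 genes with a site (35.5%, 26.5 to 45.6), beside 17.3% of all protein-coding genes. Ndufb5 and Ndufs6 shared their sites with the mitochondrial ribosomal protein genes Mrpl47 and Mrpl36. Atp5j shared its site of 1998 bp with Gabpa, which encodes the DNA-binding subunit of GABP.

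The promoters were searched for 9 consensus motifs on both strands, each as exact letters. The motifs were GCGCNTGCG for NRF1, CCGGAAGT for ETS factors, AANATGGCG for YY1, TCAAGGTCA for ERR, GGGGCGGGG for SP factors, TGACGTCA for CREB, GCGNGGGCG for EGR, TGANTCA for AP-1 and CTAAAAATA for MEF2. No match of one motif overlapped that of another in these promoters. A match describes letters only, and binding was not measured in the list.

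The start regions of 5 genes are shown because they carry the letters of the textbook regulators. Each run holds 150 bases before and 30 bases from the representative start, 5′ to 3′ on the strand of the gene (RefSeq GRCm38), and capitals mark matches on either strand. Cox6a1 (chr5:115348952-115349131, minus strand) and Atp5k (chr5:108434419-108434598, minus strand) are shown with NRF1 letters. Atp5h (chr11:115419933-115420112, minus strand) and Uqcr11 (chr10:80406801-80406980, minus strand) are shown with NRF1 and ETS letters. Atp5g3 (chr2:73911297-73911476, minus strand) is shown with NRF1 and ERR letters.
Cox6a1: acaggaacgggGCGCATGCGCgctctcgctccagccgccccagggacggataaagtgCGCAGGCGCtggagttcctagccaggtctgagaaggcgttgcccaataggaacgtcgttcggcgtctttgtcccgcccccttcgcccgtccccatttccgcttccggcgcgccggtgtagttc
Atp5k: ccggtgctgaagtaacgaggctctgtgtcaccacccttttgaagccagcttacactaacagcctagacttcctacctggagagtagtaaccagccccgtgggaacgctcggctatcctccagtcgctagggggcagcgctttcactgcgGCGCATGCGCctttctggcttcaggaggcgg
Atp5h: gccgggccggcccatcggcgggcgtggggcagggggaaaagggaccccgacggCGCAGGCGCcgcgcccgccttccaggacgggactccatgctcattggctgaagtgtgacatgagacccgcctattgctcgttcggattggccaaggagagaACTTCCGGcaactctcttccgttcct
Uqcr11: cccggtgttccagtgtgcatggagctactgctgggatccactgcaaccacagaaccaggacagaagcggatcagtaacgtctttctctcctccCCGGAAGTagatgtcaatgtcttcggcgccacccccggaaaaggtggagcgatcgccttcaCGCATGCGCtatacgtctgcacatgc
Atp5g3: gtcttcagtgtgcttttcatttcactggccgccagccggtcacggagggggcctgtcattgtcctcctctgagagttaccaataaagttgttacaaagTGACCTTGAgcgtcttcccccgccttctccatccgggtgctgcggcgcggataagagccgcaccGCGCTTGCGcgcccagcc
Cox6a1 held NRF1 letters at 2 separate places, of which the first reads alike on both strands. In Atp5k, a small subunit of the ATP synthase, the letters lay across the start. In Atp5g3 the ERR letters preceded the start and the NRF1 letters followed it. Atp5h, a subunit of the peripheral stalk, also held YY1 letters further upstream, outside the run shown.

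NRF1 letters were the most common. They were found in 24 of 103 respiratory chain promoters (23.3%, 16.2 to 32.3), beside 8.69% of all protein-coding promoters. Within CpG-rich promoters the shares were 26.9% (17.7 to 38.5) and 17.1%. They occurred in genes of each of the 5 complexes, and Sdha alone had 3 separate places. ETS letters were found in 10 promoters (9.71%, 5.36 to 17.0), beside 5.01%, and within CpG-rich promoters in 11.9%, beside 8.90%. Cox8a held 2 ETS places, and Ndufs1 and Uqcrh were among the other genes with one. YY1 letters were found in 7 promoters (6.80%, 3.33 to 13.4), beside 3.14%, among them Ndufa9 and Ndufb11. At least 1 of these 3 motifs occurred in 37 promoters (35.9%), beside 15.4% of all protein-coding promoters. Atp5h was the single respiratory chain gene with all 3 (0.971%), beside 0.0456%. These shares depended on the window searched, and with 500 bp either side of the start YY1 letters occurred in 26.2% of the respiratory chain genes, beside 6.78%.

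The other motifs were rarer or more common elsewhere. ERR letters occurred in Sdhd and Atp5g3 (1.94%, 0.534 to 6.81), beside 0.397%. SP letters occurred in 11 promoters (10.7%, 6.07 to 18.1), beside 15.4%, and within CpG-rich promoters in 11.9% (6.18 to 21.8), beside 28.2%. EGR letters occurred in 4 promoters (3.88%), beside 7.59%, and within CpG-rich promoters in 5.97% (2.35 to 14.4), beside 15.6%. For SP and EGR letters the interval of the CpG-rich respiratory chain promoters lay under the share of CpG-rich protein-coding promoters. For NRF1 letters its lower bound of 17.7% lay just above that share of 17.1%. For ERR letters it also lay above, but with only 2 promoters (2.99%, 0.822 to 10.2), beside 0.188%. For the other 5 motifs it included that share, and all this is a description without a test. The CpG-rich promoters differed in GC content, with medians of 59.3% in the respiratory chain genes and 64.7% in protein-coding genes. The part of GC content in the motif shares was not tested. Cox4i1 held 3 separate SP places. CREB letters occurred in 5 promoters (4.85%), beside 2.51%, and AP-1 letters in 4 (3.88%), beside 6.66%. MEF2 letters, bound by a family of muscle and neuronal factors, occurred in the muscle gene Cox6a2 alone, with the first base 28 bp before the start, and in 0.456% of all protein-coding promoters.

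**Figure D5:**
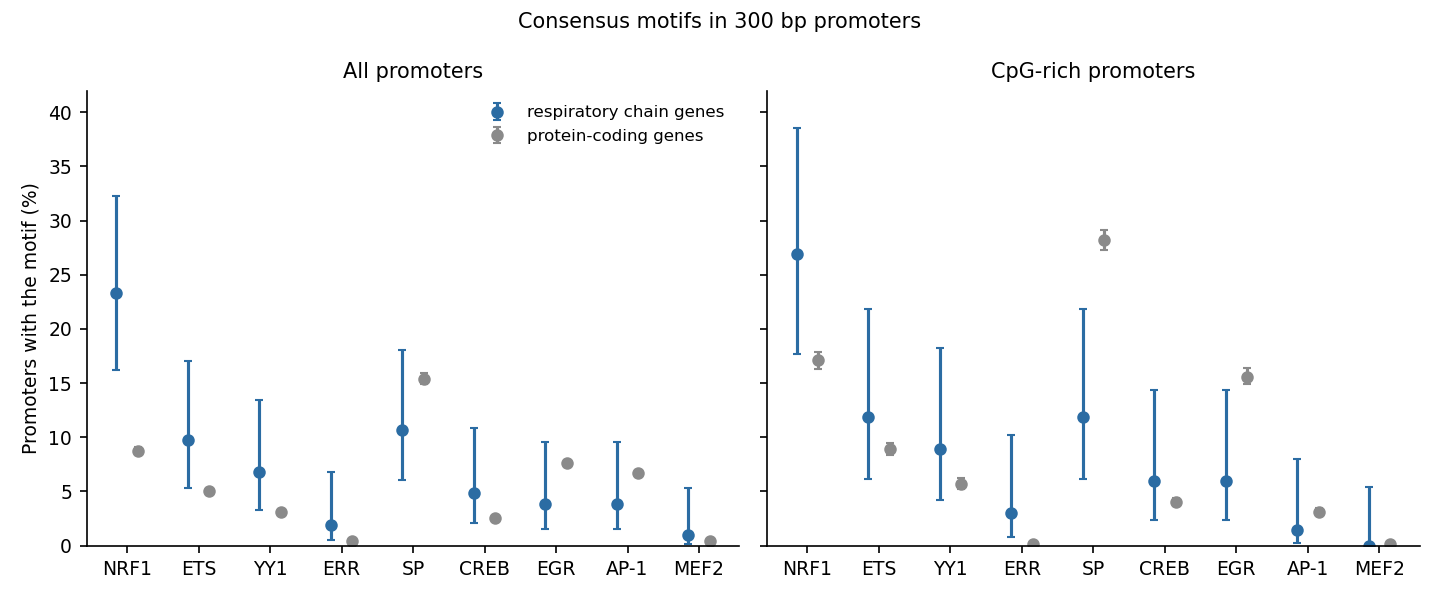
Share of promoters (%) with exact letters of 9 consensus motifs, in all promoters (left) and CpG-rich promoters (right), for respiratory chain genes (blue) and protein-coding genes (grey). Points are shares and bars are 95% Wilson intervals over genes, and NRF1 stands highest among the blue points at 23.3% and 26.9%.

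Genes that work with the chain but escaped the naming rule resembled it. Of 32 assembly factors and partners, 31 (96.9%) had a site at a start, beside the 70.8% of all protein-coding genes. The exception was Sdhaf1, an assembly factor of complex II, whose nearest site ended 1059 bp from its start. All 11 regulators had one, with 2354 bp at Nrf1, 1998 bp at Gabpa, 1717 bp at Esrra, which encodes ERR alpha, 1548 bp at Yy1 and 1457 bp at Tfam, the mitochondrial transcription factor. Ppargc1a, the coactivator PGC-1 alpha of oxidative tissues, had 2 sites in its windows. The wider measured 1418 bp, and the narrower one covered the representative start.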

How the data were processed

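ATAC-seq libraries of iMEF cells were made by the authors, who used Trim Galore for trimming, BWA for alignment to mm10, SAMtools for filtering, Picard for merging of replicates and MACS2 in its narrow mode for peaks. The deposited table gives only the chromosome, start and end of each of 153924 sites over all 10 libraries, 153682 of them on the chromosomes used here. Versions, the MACS2 threshold, any Tn5 shift and how the sites of the samples were joined are not given in the sources used here. Each of these could change the number, edges and width of sites, and weaker sites enter a list as depth grows. Without counts, no test of time points was possible.

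The members and lists were chosen with earlier results of these data known. The left edges were taken to start at 0, with the right edge excluded, and are printed from 1, and 0 sites ended beyond their chromosome. Starts came from GENCODE release M21 and sequences from the RefSeq genome of GRCm38. A gene had a site when at least 1 bp of a site lay no more than 1 kb from any of its starts. The representative start was that of the APPRIS principal coding transcript, or else the most upstream coding start. Shares have Wilson intervals and medians order-statistic intervals (95%). Genes named in the text are the paralogs, the Atp5g family, the core of complex I, complex II, genes without a site or with several, the 3 widest and 3 narrowest sites, X-linked genes and the 5 closest divergent pairs. The values of 1 gene under this rule are not reported here. Other genes were named after their values were seen, as examples. Overlaps were computed with Python 3.11.15, NumPy 2.4.6 and SciPy 1.17.1 and tested on simulated intervals.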

Additional observations from a re-analysis of the deposited data

How the results depend on the processing

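The list holds no value per library, so depth limits which sites are listed in a way that cannot be measured here. No paired analysis was possible because all libraries were pooled into 1 list and no result comes from a test. Leaving out a replicate could not be done for the same reason. The share of respiratory chain genes with a site at a start was 95.1% with a window of 3 kb and lay between 88.3% and 91.2% under the other alternatives, including 1 chosen after seeing the data, which left out the second Atp5o entry. The tissue-specific paralogs moved to 100% with 3 kb and lay between 25.0% and 50.0% otherwise, and the ubiquitous paralogs were at 100% except at 85.7% when sites narrower than the median of the list, 619 bp, were left out. For all protein-coding genes the share was 68.6% with 500 bp, 76.4% with 3 kb, 66.8% with the representative start only, 69.0% when the middle of the site had to lie in the window, 65.5% with wide sites and 69.6% with RefSeq starts. Their median width was 1374 bp for the site nearest to the representative start and 1422 bp with 500 bp, whereas that of the respiratory chain genes stayed between 1321 and 1324 bp. CpG-rich promoters made up 75.7% of the respiratory chain genes and 46.0% of all genes in windows of 500 bp either side, and 38.8% and 28.5% with a ratio over 0.75 and a GC content over 55%. A divergent neighbour within 500 bp was found at 23.3% of the respiratory chain genes and 6.04% of all genes. The motif shares depended strongly on the window. With 500 bp either side, the respiratory chain promoters held YY1 letters in 26.2%, ERR letters in 9.71%, AP-1 letters in 16.5%, SP letters in 20.4%, EGR letters in 8.74%, ETS letters in 15.5% and NRF1 letters in 33.0%, and the difference from all promoters in YY1 letters went from 3.66 to 19.4 percentage points. In the same windows, the difference in share between respiratory chain and all promoters kept its sign for 8 of 9 motifs. MEF2 was the exception, and for it the difference went from 0.515 to -0.319 percentage points. The causes of these shifts were not tested.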
